A study of Mus musculus with 10 samples.

Results

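Aurora kinases, their passenger complex partners and the genes of the spindle checkpoint were followed in fully grown mouse oocytes with and without RNA interference against basonuclin. The set held 10 genes, taken by gene symbol: the kinases Aurka, Aurkb and Aurkc, the chromosomal passenger genes Birc5, Incenp and Cdca8, and the checkpoint genes Bub1, Bub1b, Mad2l1 and Ttk. All 10 were on the array with 22 probe sets, and all 10 were among the 10590 genes tested. Each gene was read from its brightest probe set over the 10 samples, a choice that does not use the groups.

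The study lowered the mRNA of basonuclin (Bnc1), a zinc finger protein of skin and germ cells, by a transgene that makes RNA interference in oocytes only. There were 4 samples from non-transgenic and 6 from RNAi-transgenic mice, each with total RNA of 50 oocytes from 1 mouse on 1 array. Strain, age, and the promoter and line of the transgene are not given in the sources used here. All oocytes were at the germinal vesicle stage, held in prophase before the meiotic divisions, so the genes described here were measured before a spindle had formed.

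Chromosome segregation in meiosis depends on kinases that attach, check and release the chromosomes. Aurora A, the product of Aurka, builds the spindle poles. Aurora B and the germ cell kinase Aurora C bind INCENP, survivin (Birc5) and borealin (Cdca8) to form the chromosomal passenger complex, which corrects faulty attachments. Where a kinetochore lacks microtubules, the kinases of Ttk and Bub1 recruit the Bub1b and Mad2l1 proteins, which hold back the anaphase-promoting complex. Fully grown oocytes store the mRNAs of such genes for use after meiosis resumes.

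The transcript targeted by the RNAi, Bnc1, averaged 11.57 ± 0.15 (SD, n = 4) without the transgene. With the transgene it averaged 3.85 ± 0.21 (SD, n = 6; limma adjusted p = 2.65e-11), and each sample was on the side of its label. Values are log2 of the deposited intensity throughout, and a change is transgenic minus non-transgenic. Array medians ran from 17.5 to 20.1 in intensity, below the intensity of 32 used as a filter. The array with the largest spread around its group mean was replicate 1 among the non-transgenic (SD 0.33) and replicate 6 among the transgenic samples (SD 0.27). The oocyte markers were bright in both groups, with 13 of 13 above the filter level and a summed intensity of 220339 to 233986 in non-transgenic and 211608 to 246681 in transgenic samples. Of 16 granulosa and cumulus markers, 5 (Amh, Amhr2, Inhba, Ptgs2 and Has2) were below the filter level in every sample. The summed intensity of that list was 1835 to 2093 and 1819 to 2977. The 14 stroma and vessel markers summed to 629 to 731 in non-transgenic and 808 to 1084 in transgenic samples, without overlap (exact permutation p = 0.00476, two-sided). Of these 14, 7 (Col1a2, Col3a1, Lum, Pdgfra, Tagln, Pecam1 and Cdh5) were below the level in every sample. The 3 most abundant were Col4a1, at 7.86 and 7.80 and not past the test (limma adjusted p = 0.767), and Col4a2 and Postn, which rose by 1.13 and 0.81 (adjusted p = 7.48e-05 and 0.00383). The 11 blood and immune markers summed to 3510 to 4381 and 2942 to 4591, with 7 (Ptprc, Cd68, Csf1r, Cd74, Hba-a1, Lyz2 and Tyrobp) below the level in every sample. Of the tested markers, 0 rose and 2 fell in limma among 13 of oocytes and 2 and 0 among 9 of granulosa. The counts were 4 and 1 among 6 of stroma and 1 and 1 among 4 of blood. Over all genes, 18.9% rose and 18.3% fell. The part of other cells in the results below was not tested. In RNA of whole samples, fewer cells of a type and less RNA per cell cannot be told apart.

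Among the 10 genes 1 rose and 2 fell. Aurkc was 2.00-fold higher in transgenic oocytes (95% interval 1.63 to 2.45), while Birc5 was at 0.878 and Mad2l1 at 0.826 of the non-transgenic level. The other 7 did not pass the test, and their fitted changes lay between -0.05 and 0.15. Of all genes tested, 37.2% passed (18.9% higher and 18.3% lower; limma with Benjamini-Hochberg adjustment over all genes, threshold 0.05), so 3 of 10 is close to the share among all genes. The median change of the 10 genes was 0.03, against -0.03 over all genes, and the median size of a change was 0.06 against 0.24. The 10 genes were brighter than many, each above 45.9% to 99.3% of all tested genes in mean level. Their median SD was 0.10 in non-transgenic and 0.08 in transgenic samples, against 0.19 and 0.16 over all genes. Whether level bears on the size of the changes was not tested. Groups did not overlap for 3 of the 10 (Aurkc, Birc5 and Mad2l1) and for 28.0% of all genes.

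The RefSeq promoter table of build GRCm38.p6 held 8 of the 10 genes, all but Aurkb and Incenp. A CCAAT box and the cell cycle element CHR are known from promoters of many genes of mitosis. The 250 bases before each start were searched on both strands. A CCAAT box was found before Aurka, Cdca8, Bub1, Bub1b and Ttk, which is 5 of 8 windows, and in 33.9% of all 32851 windows of the table. Counts are over all 250 bases of a window, also where it runs past the most upstream start of any transcript of the gene. The Aurka window has 0 bases before that start, so its 2 matches lie within the gene. The CHR, spelled TTTGAA, was found in 0 of the 8 windows and in 15.99% of all windows in the table. Its variant with a central CG, spelled TTCGAA, was found before Bub1b alone of the 8 genes and in 1.34% of all windows. The 3 genes that passed the test, Aurkc, Birc5 and Mad2l1, held neither a CCAAT box nor a CHR of either spelling in these windows. An E-box, spelled CANNTG, was searched as well and was found in 5 of 8 windows and in 66.2% of all. It was found before Aurkc and Birc5 and not before Mad2l1. All of this is a description with no test. The windows of the 3 genes that passed are printed here with those of Cdca8, which had 3 CCAAT matches, and Bub1b, which had both kinds. Each runs 5′ to 3′ on the gene's strand and ends before the most upstream start of any transcript of the gene, and capitals mark the matches to CCAAT and CHR, not those to the E-box.
Aurkc (chr7:6995135-6995346, plus strand): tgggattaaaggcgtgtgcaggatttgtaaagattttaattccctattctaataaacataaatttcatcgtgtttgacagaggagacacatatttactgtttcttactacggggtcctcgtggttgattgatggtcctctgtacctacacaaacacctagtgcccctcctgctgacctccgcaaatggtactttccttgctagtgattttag
Birc5 (chr11:117848987-117849236, plus strand): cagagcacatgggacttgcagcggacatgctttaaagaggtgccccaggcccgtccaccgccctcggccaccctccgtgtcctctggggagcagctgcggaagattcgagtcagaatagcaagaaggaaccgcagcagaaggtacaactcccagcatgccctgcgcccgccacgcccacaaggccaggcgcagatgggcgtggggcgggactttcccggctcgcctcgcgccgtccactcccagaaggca
Mad2l1 (chr6:66534971-66535220, plus strand): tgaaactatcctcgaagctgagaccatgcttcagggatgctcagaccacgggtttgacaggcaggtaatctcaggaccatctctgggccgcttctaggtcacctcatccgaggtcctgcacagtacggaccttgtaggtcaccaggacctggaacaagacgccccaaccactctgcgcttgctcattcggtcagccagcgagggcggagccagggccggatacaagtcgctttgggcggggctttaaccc
Cdca8 (chr4:124936918-124937167, minus strand): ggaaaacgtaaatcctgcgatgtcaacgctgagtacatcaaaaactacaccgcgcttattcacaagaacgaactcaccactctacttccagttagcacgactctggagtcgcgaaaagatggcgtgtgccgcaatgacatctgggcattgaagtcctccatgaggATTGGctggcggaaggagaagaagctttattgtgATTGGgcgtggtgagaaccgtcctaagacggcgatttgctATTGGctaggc
Bub1b (chr2:118597961-118598201, plus strand): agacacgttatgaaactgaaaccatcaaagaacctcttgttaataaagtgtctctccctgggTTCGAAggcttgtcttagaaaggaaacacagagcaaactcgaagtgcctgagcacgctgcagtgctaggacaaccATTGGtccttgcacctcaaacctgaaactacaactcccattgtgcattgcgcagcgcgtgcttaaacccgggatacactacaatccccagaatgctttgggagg

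**Figure D1:**
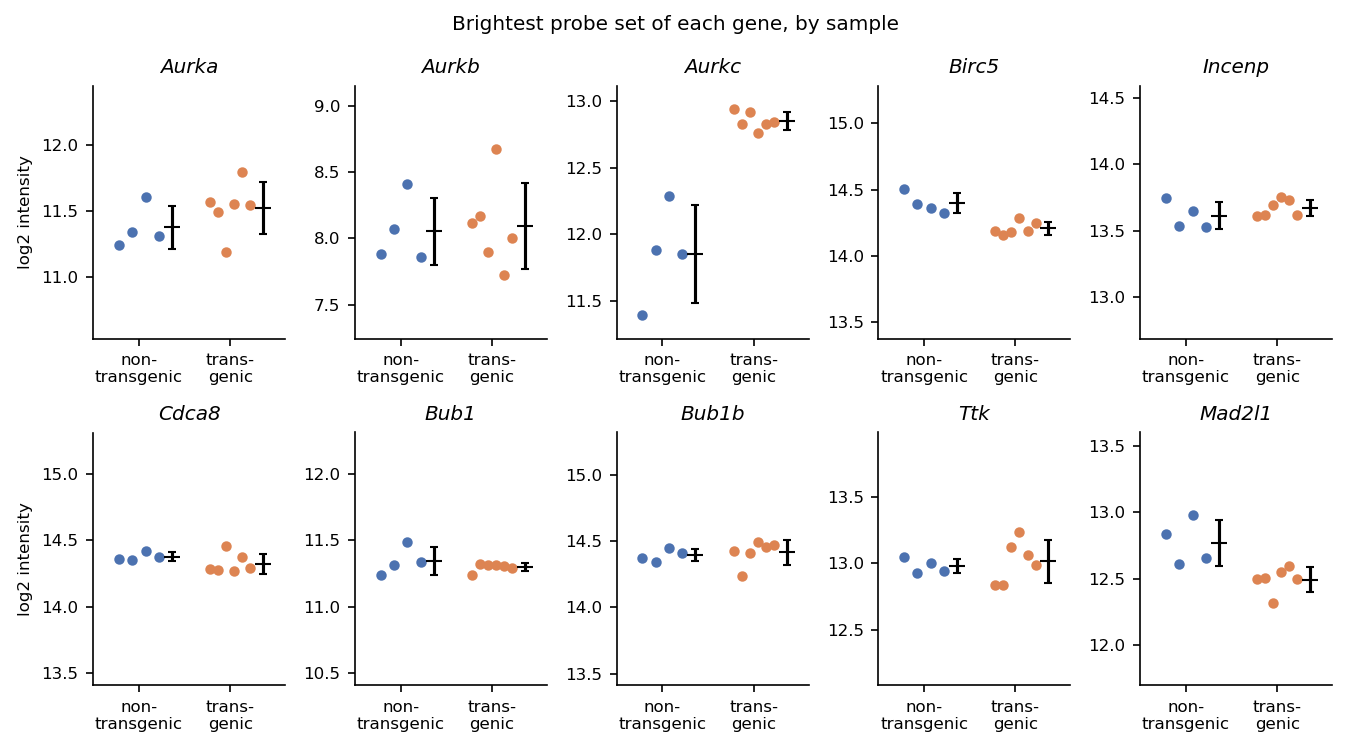
Log2 intensity of the brightest probe set of each of the 10 genes (vertical axes, each spanning the same range of log2 units around its own middle) in 4 non-transgenic (blue) and 6 transgenic (orange) samples. Points are samples, in the order of their replicate numbers, and black marks show the mean and SD. The groups are apart for Aurkc, Birc5 and Mad2l1 and overlap for the other 7.

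Aurkc encodes Aurora C, the kinase that takes the place of much of Aurora B in oocytes. Its only probe set was at 11.39, 11.88, 12.29 and 11.85 in non-transgenic replicates 1, 2, 7 and 8. In transgenic oocytes the lowest, median and highest values were 12.76, 12.84 and 12.94. All 6 transgenic samples were above the highest non-transgenic sample, and they lay closer together (SD 0.07) than the non-transgenic ones (SD 0.37), of which replicate 1 was low and replicate 7 high. The change was 1.00 (SE 0.13, limma adjusted p = 0.000162). It was 1.26 within the samples numbered 1 to 6 (adjusted p = 0.00665) and 0.74 within those numbered 7 to 13 (adjusted p = 0.0148), number ranges that no label calls batches. With any 1 sample left out it was between 0.84 and 1.14.

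Aurka, the kinase of the spindle poles, was at 11.24, 11.34, 11.61 and 11.31 in non-transgenic replicates 1, 2, 7 and 8 and at 11.19, 11.55 and 11.79 (lowest, median and highest) in transgenic oocytes. The non-transgenic range lay inside the transgenic one. The fitted change of 0.15 did not pass (95% interval -0.09 to 0.39, limma adjusted p = 0.325). With the 3′ to 5′ difference of the Actb control probe sets as a covariate, a measure of RNA length that was highest in transgenic replicate 6, the change was 0.21 and passed (adjusted p = 0.031). With the same measure of Gapdh it was 0.01 (adjusted p = 0.956). A second Aurka probe set was not tested, since it was at 2.44 or less in every sample.

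Aurkb encodes Aurora B, the passenger kinase of dividing body cells. It was at 7.88, 8.07, 8.41 and 7.86 in non-transgenic and at 7.72, 8.06 and 8.67 (lowest, median and highest) in transgenic samples. The groups overlapped, and the fitted change was 0.04 (95% interval -0.35 to 0.43, limma adjusted p = 0.88). Its second probe set gave -0.15 (adjusted p = 0.444). Both probe sets carry a suffix of the platform (_s_at or _x_at) for probes that may match more than 1 transcript, which makes the Aurkb level uncertain.

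The changes of the Aurora genes were compared within samples, by the difference of a pair's log2 values in each. Aurkc changed by 0.85 more than Aurka and by 0.96 more than Aurkb (each exact permutation p = 0.00476, two-sided, the smallest that the 210 splits allow, and 0.00714 adjusted over 3 pairs). For both pairs, 6 of 6 transgenic samples exceeded the highest non-transgenic difference. Aurkc was known from earlier results of these data as a gene that changed, so the p-values of both pairs are no independent support. Aurkb and Aurka differed in change by -0.11, with exact permutation p = 0.619, and by 0.02 without transgenic replicate 12. Non-transgenic replicate 7 was the highest of its group and replicate 1 the lowest or second lowest for all of Aurka, Aurkb and Aurkc.

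**Figure D2:**
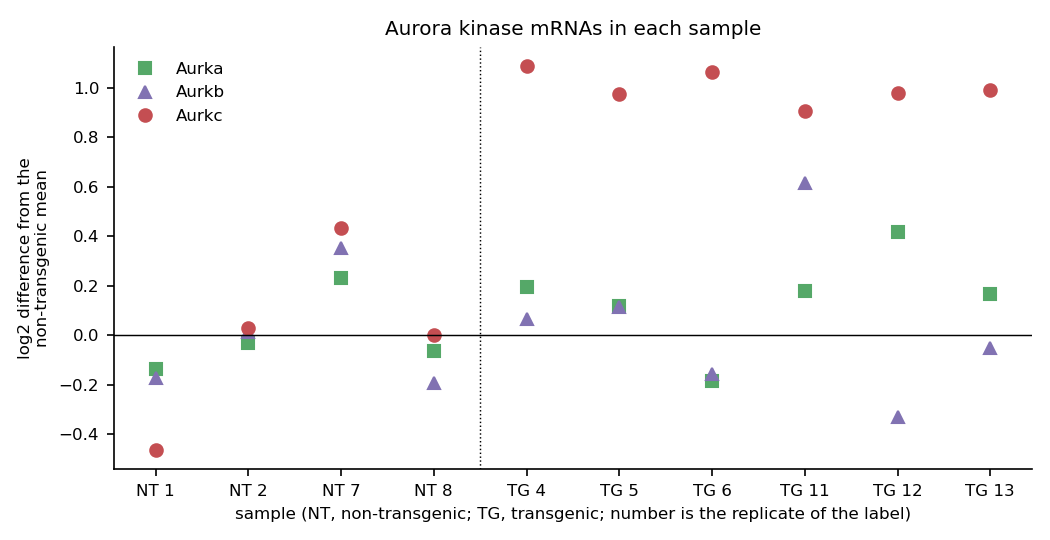
Difference of the log2 intensity of Aurka (squares), Aurkb (triangles) and Aurkc (circles) from the gene's own non-transgenic mean (vertical axis) in each of the 10 samples (horizontal axis). Aurkc is the highest of the 3 in all 6 transgenic samples, while Aurka and Aurkb lie on both sides of 0 there.

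The profile of Aurkc over the 10 samples was set against that of every other tested gene, each centred on its own mean. The 4 genes with the smallest root mean square difference were 2500002B13Rik (0.120 log2 units), Gpt2 (0.124), Ahcy (0.128) and Tcl1b4 (0.130). Gpt2 encodes an alanine transaminase of mitochondria and Ahcy the enzyme that splits S-adenosylhomocysteine. Gpt2 was at 8.81, 8.92, 9.37 and 8.85 in non-transgenic replicates 1, 2, 7 and 8. Its transgenic samples lay between 9.95 and 10.08. The Gpt2 probe set has the suffix _s_at. These genes were chosen for a small difference from Aurkc over the same 10 samples, so their likeness is a description. The order within the transgenic group was shared in part. Replicate 4 was the highest for Aurkc, Ahcy and Tcl1b4 and the lowest for Gpt2. For 2500002B13Rik, replicate 6 was the highest.

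Birc5 encodes survivin, the passenger subunit that binds the centromere. It was at 14.50, 14.39, 14.36 and 14.32 in non-transgenic replicates 1, 2, 7 and 8, and at 14.16, 14.19 and 14.28 (lowest, median and highest) in transgenic oocytes. The groups did not overlap, with non-transgenic replicate 8 and transgenic replicate 11 nearest to each other. Birc5 fell by 0.19 on the log2 scale (SE 0.04, limma adjusted p = 0.00655). The change was -0.27 within samples 1 to 6 (adjusted p = 0.0384) and -0.10 within samples 7 to 13, where the call was lost (adjusted p = 0.231). Non-transgenic replicate 1 was the highest, and without it the change was -0.15 (adjusted p = 0.0164).

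Incenp, the scaffold that holds and activates Aurora B and C, had 5 probe sets, 3 of which were tested. The brightest was at 13.53 to 13.74 in non-transgenic and 13.61 to 13.75 in transgenic oocytes, with a fitted change of 0.06 (95% interval -0.06 to 0.18, limma adjusted p = 0.451). This probe set has the suffix _x_at, so part of its signal may come from other transcripts. The second, with no such suffix, was at 10.17 to 10.38 and 9.995 to 10.24, with a change of -0.13 (adjusted p = 0.204). The third was near the filter level, at 5.03 to 5.45 over all samples. None of the 3 passed.

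Cdca8, which encodes borealin, differed between its probe sets. The brightest was at 14.36, 14.35, 14.42 and 14.38 in non-transgenic and 14.26, 14.29 and 14.46 (lowest, median and highest) in transgenic oocytes, and its change of -0.05 did not pass (limma adjusted p = 0.389). The second was at 12.97, 12.90, 13.03 and 13.06 in non-transgenic and 12.64, 12.77 and 12.94 in transgenic oocytes, with 5 of 6 transgenic samples below the lowest non-transgenic one. The third was at 10.49, 10.40, 10.59 and 10.36 and at 9.74, 9.97 and 10.01, without overlap. In the fit of 18582 probe sets, of which 33.2% passed, the second fell by 0.21 (adjusted p = 0.0209) and the third by 0.54 (adjusted p = 0.00042).

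With the mean of its 3 probe sets, Cdca8 fell by 0.27 (limma adjusted p = 0.00072). The change of the third probe set differed from that of the brightest by -0.49 (exact permutation p = 0.00476, two-sided, and 0.00952 adjusted over 2 comparisons), and that of the second by -0.16 (exact permutation p = 0.0571). This comparison was chosen after the values were seen. The first and second probe sets have the suffix _s_at and the third has none.

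**Figure D3:**
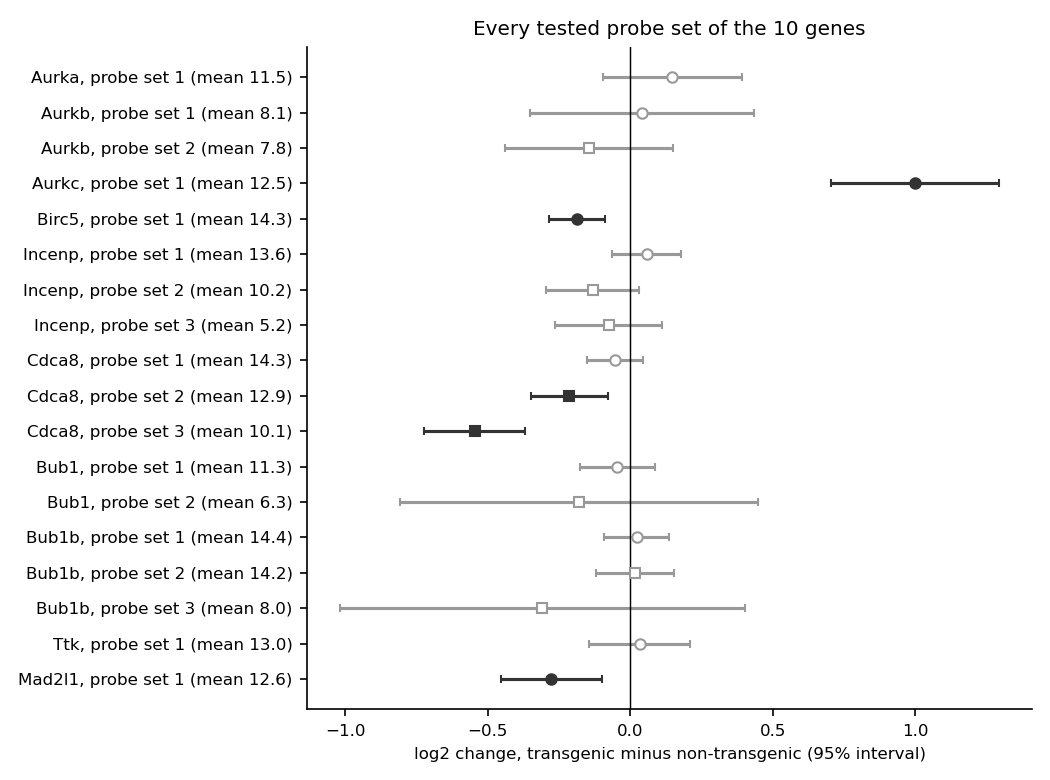
Log2 change, transgenic minus non-transgenic, with its 95% interval (horizontal axis) for the 18 tested probe sets of the 10 genes, numbered by brightness within a gene, with the mean log2 intensity in brackets. Filled symbols passed at an adjusted p of 0.05 and circles mark the brightest probe set. Aurkc is the only filled symbol to the right of 0, and the 3 probe sets of Cdca8 run from -0.05 to -0.54.

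The checkpoint kinases Bub1 and Ttk and the checkpoint protein gene Bub1b showed no change past the test. Bub1, whose kinase marks centromeres for shugoshin, was at 11.24 to 11.48 in non-transgenic and 11.24 to 11.32 in transgenic oocytes, with a fitted change of -0.05 (95% interval -0.18 to 0.08, limma adjusted p = 0.584). Its second probe set varied more, from 5.75 to 6.65 and from 5.34 to 6.68, with a change of -0.18 (adjusted p = 0.665). Bub1b, which encodes BUBR1, a part of the complex that inhibits Cdc20, was at 14.35 to 14.44 and 14.24 to 14.50, with a change of 0.02 (95% interval -0.09 to 0.14, adjusted p = 0.767). A second bright Bub1b probe set gave 0.02 as well (adjusted p = 0.856). The brightest has the suffix _s_at and the second has no such suffix.

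The third and dimmest probe set of Bub1b ranged from 7.19 to 9.13 in transgenic against 8.11 to 8.26 in non-transgenic oocytes, and did not pass (adjusted p = 0.505). Ttk, the kinase that starts checkpoint signalling and is also called Mps1, was at 12.93 to 13.05 and 12.83 to 13.23, with a change of 0.03 (95% interval -0.14 to 0.21, limma adjusted p = 0.785). The Ttk values of the transgenic samples lay on both sides of the non-transgenic range, with 3 above and 2 below it.

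Mad2l1 encodes MAD2, which binds Cdc20 and keeps it from the anaphase-promoting complex. It was at 12.84, 12.61, 12.98 and 12.65 in non-transgenic replicates 1, 2, 7 and 8 and at 12.32, 12.50 and 12.60 (lowest, median and highest) in transgenic oocytes. The groups did not overlap, but the highest transgenic sample was close to non-transgenic replicate 2. Mad2l1 fell by 0.28 (SE 0.08, limma adjusted p = 0.0192). The call was lost without non-transgenic replicate 7 (change -0.21, adjusted p = 0.0572), without both arrays of the largest spread (-0.22, adjusted p = 0.0731), and with each array centred on its median over all probe sets (-0.24, adjusted p = 0.0834). It passed when arrays were centred on the median of the probe sets past the filter (-0.33, adjusted p = 0.0037). Within samples 1 to 6 and 7 to 13 the change was -0.28 and -0.27, and neither passed (adjusted p = 0.139 and 0.14).

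Of 16 other tested genes of the checkpoint and of centromere protection, 1 rose and 4 fell (6.25% and 25.0%, against 18.9% and 18.3% of all genes), with a median change of -0.02. Kntc1 and Zwilch, of the complex that brings MAD1 to kinetochores, fell by 0.29 each (limma adjusted p = 0.009 and 0.0172). Kntc1 was at 9.81 to 10.01 in non-transgenic and 9.57 to 9.72 in transgenic samples, without overlap. Bub3, the partner of Bub1 and Bub1b, fell by 0.18 (adjusted p = 0.0321), and Spdl1, which links that complex to dynein, rose by 0.22 (adjusted p = 0.0265). The Bub3 probe set has the suffix _s_at. Within samples 1 to 6 and within samples 7 to 13, 0 genes of this list rose and 0 fell. Kntc1 was at a limma adjusted p of 0.171 and 0.0871 there.

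The partners of the 10 genes named whatever their p gave 3 values in this list that did not pass. Mad1l1, the MAD2 partner, was at 7.16 and 6.92 (adjusted p = 0.166), except that it passed after quantile normalization (change -0.33, adjusted p = 0.0386). Sgo2a, a shugoshin that guards centromeric cohesin in meiosis, was at 9.22 and 9.40 (adjusted p = 0.244). Haspin, whose histone mark recruits the passenger complex, was at 11.07 and 10.96 (adjusted p = 0.358). Calls lost by leaving out 1 sample were those of Spdl1 (non-transgenic 1, 2 or 8, transgenic 5 or 11, adjusted p up to 0.0832), Zwilch (non-transgenic 2 or 7, up to 0.0532) and Bub3 (non-transgenic 2, 7 or 8, transgenic 5, up to 0.0818). Bub3 also lost its call with the mean of its probe sets (adjusted p = 0.302).

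Around Aurora A and spindle assembly, 2 of 25 tested genes rose and 4 fell (8% and 16%, against 18.9% and 18.3% of all genes). The median change was -0.03, as over all genes. The largest change was that of Ran, the GTPase that frees spindle assembly factors near chromosomes. Ran was at 13.07, 12.89, 13.10 and 13.40 in non-transgenic and at 11.44 to 12.57 in transgenic samples, without overlap, and fell by 0.97 (SE 0.19, limma adjusted p = 0.0019). Its probe set has the suffix _x_at. Tacc3, an Aurora A substrate of spindle poles, fell by 0.29 (adjusted p = 0.0077) and its clathrin partner Cltc by 0.30 (adjusted p = 0.0055).

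The kinesin genes Kif11 and Kif2c rose by 0.37 and 0.32 (limma adjusted p = 0.0363 and 0.0235). Kif2c encodes the microtubule depolymerase MCAK, which the passenger complex controls. With the mean of their probe sets neither passed (0.05 and 0.16, adjusted p = 0.814 and 0.343). Leaving out non-transgenic 1, 2 or 8 or transgenic 4, 5, 6 or 13 alone also ended the call of Kif11 (adjusted p up to 0.096), and leaving out non-transgenic 1 or 2 that of Kif2c (up to 0.0695). Of 27 alternatives, Kif11 kept its call under 13 and Kif2c under 21. Tpx2, the activator of Aurora A, was at 10.82 in non-transgenic and 10.64 in transgenic oocytes and did not pass (adjusted p = 0.112). It passed without non-transgenic replicate 1 (change -0.25, adjusted p = 0.0409) and with arrays centred on the probe sets past the filter (-0.24, adjusted p = 0.026). With the Gapdh difference as a covariate it passed as well (-0.29, adjusted p = 0.0468).

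Of 26 tested kinetochore and centromere genes, 4 rose and 9 fell (15.4% and 34.6%, against 18.9% and 18.3% of all genes), with a median change of -0.09 against -0.03. Ndc80, whose product grips the microtubule end and is an Aurora substrate, was at 10.85, 11.05, 11.07 and 11.00 in non-transgenic and 9.63 to 10.14 in transgenic samples, and fell by 1.14 (SE 0.12, limma adjusted p = 2.47e-05). Ska2, of the SKA complex that steadies that grip, was at 8.98 to 9.53 and 7.40 to 7.96 and fell by 1.64 (SE 0.14).

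The centromere gene Cenpo fell by 0.69 (SE 0.09), while Cenpt rose by 1.89 and Cenpl by 0.83. Cenpt, which connects centromeric DNA to the NDC80 complex, was at 8.38, 8.51, 8.72 and 8.55 in non-transgenic and 10.33 to 10.54 in transgenic samples, without overlap. Zwint, a partner of Knl1, rose by 0.26 (limma adjusted p = 0.0146), a call lost with the mean of its probe sets (0.12, adjusted p = 0.375). No test compared this list with other genes.

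Of 22 tested genes of the anaphase-promoting complex and of separase control, 3 rose and 6 fell. That is 13.6% and 27.3%, against 18.9% and 18.3% of all genes, with a median change of -0.12 against -0.03. Cdc20, the activator that the checkpoint holds back, was at 12.94, 12.67, 12.47 and 12.47 in non-transgenic and 12.88 to 13.10 in transgenic samples, with non-transgenic replicate 1 inside the transgenic range. It rose by 0.33 (limma adjusted p = 0.0163), lost its call without non-transgenic replicate 7 or 8 (adjusted p up to 0.0539), and was 0.15 within samples 1 to 6 (adjusted p = 0.372). Ube2c, the conjugating enzyme that serves the complex, fell by 0.68 from 9.29 to 8.61 (adjusted p = 0.000156). The subunit genes Anapc1 and Anapc5 fell by 0.26 each (adjusted p = 0.0077 and 0.009), the former not with the mean of its probe sets (-0.10, adjusted p = 0.406).

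Ube2d1, another conjugating enzyme, rose by 1.00 from a low level of 5.89 (limma adjusted p = 0.0037), and Espl1, the gene of separase, by 0.22 (adjusted p = 0.0193), the latter not without non-transgenic replicate 8 (adjusted p = 0.0572). Over the 4 lists together 10 of 89 genes rose and 23 fell. That is 11.2% higher and 25.8% lower, against 18.9% and 18.3% of all genes, with no test of the difference. The count that fell was 16 with median centring and 27 with arrays centred on the probe sets past the filter, and the count of genes that rose was 6 without non-transgenic replicate 1, 2 or 8.

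**Figure D4:**
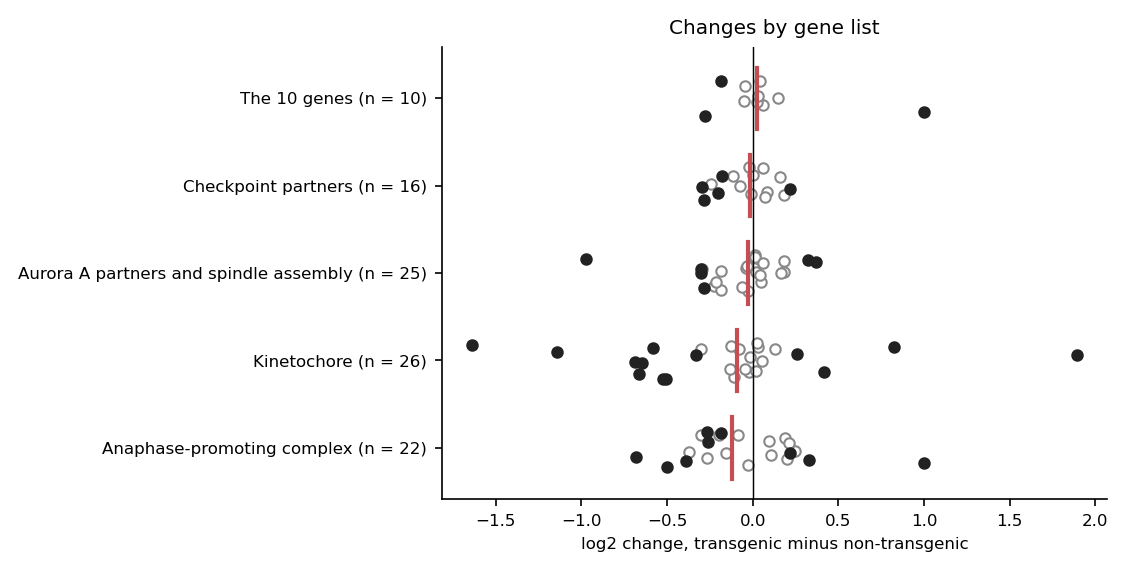
Log2 change, transgenic minus non-transgenic (horizontal axis), of the 10 genes and of the tested genes in 4 related lists (rows). Filled points passed at an adjusted p of 0.05 and red bars are medians. Changes of the 10 genes lie between -0.28 and 1.00, and those of the kinetochore list reach from -1.64 to 1.89.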

How the data were processed

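Each array came as 1 linear intensity for every probe set, as the authors deposited it. GCRMA is the tool named in the submitters' processing notes, with its version and the genome build not given in the sources used here. It corrects background, normalizes arrays to each other and pulls dim probe sets to a floor. The deposited intensity values carry no detection flag. They were put on the log2 scale with no new normalization.

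Of 45101 probe sets, 34945 had 1 gene in the platform annotation and 932 several, and the latter were not named. A probe set was tested where log2 was above 5 in at least 4 arrays, which left 18582 probe sets, with or without a gene and without controls. Those with 1 gene gave 10590 genes, each read from its brightest probe set. Groups were compared as unpaired with limma 3.58.1 (lmFit, eBayes with a trend) in R 4.3.3. Benjamini-Hochberg adjustment was over all genes, with a threshold of 0.05. The fit was tested on simulated data with 200 changed genes of 10590. There 55.2% of 1.5-fold, 82.1% of 2-fold and 97.0% of 4-fold changes passed, and 5.45% of the calls were false. Smaller changes were not simulated. Single differences used a two-sided exact permutation test over 210 splits. The number of arrays limits the precision.

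The members and lists were chosen with earlier results of these data known. Named are all 10 genes and Bnc1, their direct partners Bub3, Mad1l1, Cdc20, Tpx2, Sgo2a and Haspin, in each related list up to 3 higher and 3 lower genes by adjusted p, and the 4 genes most like Aurkc. The 3 most abundant markers of each cell type were examined too. Alternatives were other filters, scalings, variance models, number ranges, probe set rules and a stricter threshold, and each sample left out. Both RNA length covariates, the median of the probe sets past the filter and the loss of both arrays of the largest spread were added after seeing the data. Sequences are from RefSeq (GRCm38.p6), with all 10 genes matched by gene number. Figures were drawn with matplotlib 3.10.9.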

Additional observations from a re-analysis of the deposited data

Results flagged for a closer look

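In 120 sets of values, 1 for each tested probe set of the 10 genes and each other named gene in each group, 11 held a sample whose distance from the rest was large against the range of its group by Dixon's criterion. Chance gives about 1 in 20.

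Among the 10 genes, transgenic replicate 6 was low for Mad2l1 at log2 12.32, with the others at 12.50 to 12.60. Transgenic replicate 4 was low for the brightest Bub1 probe set at 11.24, with the others at 11.29 to 11.32, and non-transgenic replicate 1 was low for the second one at 5.75, with the others at 6.60 to 6.65. Transgenic replicate 5 was low for the brightest Bub1b probe set at 14.24, with the others at 14.41 to 14.50. Non-transgenic replicate 1 was high for the third Incenp probe set at 5.45, with the others at 5.21 to 5.24.

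Non-transgenic replicate 7 was the high sample for Mad1l1 at 7.60 (others 6.98 to 7.04), Kif11 at 9.74 (others 9.19 to 9.28), Cenpl at 8.97 (others 8.52 to 8.58) and the collagen gene Col4a2 at 7.00 (others 6.71 to 6.74). For Col4a1, non-transgenic replicate 8 was high at 8.19 and transgenic replicate 5 low at 7.33.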

How the results depend on the processing

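No paired analysis was possible because the groups share no replicate number. Of 1447 comparisons of a named gene or Aurora pair with an alternative, 1344 kept their side of the threshold, 92 lost a call, 11 gained one and 0 turned a called direction. Among those that kept their side, 36 uncalled values changed sign. Aurkc passed under all 27 alternatives run for it (change 0.74 to 1.26, adjusted p up to 0.0148), Birc5 under all but samples 7 to 13, and Mad2l1 under 21 of 27.

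Of the 10 genes, 2 rose with the Actb covariate. The count that fell was 1 with median centring, within samples 1 to 6, at a threshold of 0.01 and without both arrays of the largest spread, 0 within samples 7 to 13, and 3 with the mean of probe sets, where Cdca8 was added. Leaving out 1 sample gave 1 higher each time and 1 to 2 lower, with 1 only without non-transgenic replicate 7. The related lists gave 5 higher and 11 lower within samples 1 to 6, 3 and 8 within samples 7 to 13 and 3 and 14 at 0.01, 5 higher with the Gapdh covariate and 6 higher when centred on the probe sets past the filter. With 1 sample left out they gave 6 to 11 higher and 17 to 25 lower. Over all genes, 1207 rose and 706 fell within samples 1 to 6, 1241 and 1023 within samples 7 to 13, and 1102 fell at 0.01. The balance of directions moved with the scaling, with 1984 higher and 1454 lower after median centring, 1906 and 2250 after quantile normalization, and 1773 and 2434 when centred on the probe sets past the filter. Signal near the filter level limits the dim probe sets of Incenp, Bub1 and Ube2d1.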
